A study of Caenorhabditis elegans with 18 samples.

Results

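The gene acs-2 (sequence name F28F8.2, gene WBGene00009221) encodes an acyl-CoA synthetase, an enzyme that joins a free fatty acid to coenzyme A. It was selected on the size of its RNAi response, which was among the strongest inductions in each of the 3 strains studied, and it is 1 of the 20505 gene models counted. Its RNAi responses are therefore described without a test. RNA came from whole Caenorhabditis elegans collected at the fourth larval (L4) stage. The strains were N2, the laboratory wild type, and animals carrying lin-65(n3441) or met-2(ok2307). All were grown at 20C from hatching on bacteria with the empty vector (EV) or with the cco-1 RNAi vector. Each of the 6 groups had 3 polyA RNA-seq libraries, 18 in all. The gene targeted, cco-1, is now called cox-5B and makes a nuclear-encoded part of cytochrome c oxidase, the last complex of the respiratory chain. LIN-65 is a nuclear protein and MET-2 a histone H3 lysine 9 methyltransferase, and the design compared the response to this mitochondrial stress with and without each of them. The labels do not state that replicates came from separate cultures, so a p reflects only how far these libraries spread, which may be technical.

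ACS-2 acts at the entry to mitochondrial fatty acid breakdown. The acyl-CoA it makes passes through the carnitine shuttle into the mitochondrion, where beta-oxidation shortens it and feeds electrons to the respiratory chain. In worms acs-2 is known as a fasting-induced gene of the intestine, switched on by the nuclear hormone receptor NHR-49 with the Mediator subunit MDT-15, and it is widely used as a readout of that pathway.

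In the WBcel235 annotation, acs-2 spans chrV:15567394-15569897 on the plus strand. It has 1 annotated transcript of 6 exons with 2083 bases of exon sequence. Of these, 1854 bases code for 618 amino acids, 14 lie in the 5′ UTR and 212 in the 3′ UTR. No other annotated gene overlaps it. No source names the build or annotation behind the deposited counts, so these coordinates describe the annotated gene and not the counting.

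Library totals ran from 5141303 to 19261705 counts, with a median of 14354765.5. Levels are given as CPM, counts scaled to library size with TMM factors, with SD over n = 3 libraries. A count of 3, taken as the floor of detection, was worth 0.156 to 0.584 CPM of a library's total, for counting error only. The RNAi target cox-5B averaged 718 CPM on EV and 296 on RNAi in N2, 586 and 277 in lin-65, and 697 and 353 in met-2. The lin-65 transcript averaged 13.4 CPM in N2 EV and 6.88 in lin-65 EV, and the met-2 transcript 40.5 CPM in N2 EV and 18.8 in met-2 EV. For lin-65 EV replicate 1 the strain field reads N2 while its title and source read lin-65(n3441). It was kept as lin-65, and its lin-65 transcript was at 6.52 CPM against 12.01 to 14.15 in the N2 EV libraries. This library and met-2 cco-1 replicate 1 stood farthest from their groups, with a mean correlation of 0.920 and 0.892 with their replicates across genes, against 0.922 to 0.983 for the other libraries. Results that turn on these libraries are given with all 18 libraries and without these 2, written as 16 libraries. Markers of intestine, body wall muscle, hypodermis, neurons and germline were all above 0 in every library, as whole worms should give, and 1 of 10 sperm markers was at 0 in some library of 2 groups.

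The acs-2 transcript was scarce on EV in N2. The 3 N2 EV libraries held 25, 22 and 39 acs-2 reads, or 3.71, 1.49 and 2.12 CPM, a mean of 2.44 ± 1.14. On cco-1 RNAi the N2 libraries held 629, 317 and 1003 reads, or 53.0, 38.4 and 51.3 CPM (47.6 ± 7.96). The lowest library on RNAi was far above the highest on EV, and the groups did not overlap. The fitted difference was a log2 fold change of 4.35 ± 0.44 (SE; 95% interval 3.41 to 5.28), a 20.4-fold higher level on RNAi.

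In lin-65 worms the pattern was close to that of N2. On EV the libraries held 8, 46 and 52 reads, or 0.779, 2.61 and 3.93 CPM (2.44 ± 1.58). The lowest of these, replicate 1, is the library with the conflicting strain field, and its 8 reads carry a Poisson interval of 3.45 to 15.8. On cco-1 RNAi the libraries held 173, 537 and 723 reads, or 29.4, 39.9 and 40.3 CPM (36.5 ± 6.17). Again no library on RNAi came near those on EV. The log2 fold change was 3.88 ± 0.43 (2.97 to 4.78), 14.7-fold, and 3.49 with 16 libraries.

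In met-2 worms acs-2 started from a higher level. The EV libraries were at 15.8, 10.0 and 17.6 CPM (14.5 ± 3.98), from 270 reads in replicate 1, 206 in replicate 3 and fewer in replicate 2 (Poisson interval 119.6 to 167.4). On cco-1 RNAi they held 732, 870 and 624 reads, or 52.7, 59.2 and 80.1 CPM (64.0 ± 14.3). The 2 groups did not overlap here either, but the distance between them was smaller than in the other strains. The log2 fold change was 2.14 ± 0.39 (1.32 to 2.96), a 4.41-fold higher level on RNAi, and 2.24 with 16 libraries.

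**Figure D1:**
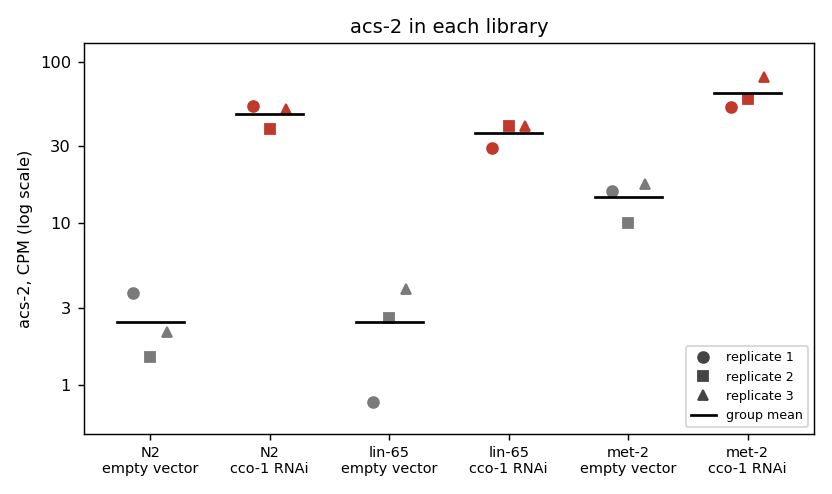
The level of acs-2 in each of the 18 libraries (CPM, log axis), by strain and treatment, with the group mean. The N2 and lin-65 EV libraries lie between 0.779 and 3.93 CPM, the met-2 EV libraries between 10.0 and 17.6, and all 9 libraries on cco-1 RNAi between 29.4 and 80.1.

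Ordered by mean level, the groups ran from N2 EV and lin-65 EV through met-2 EV to lin-65, N2 and met-2 on cco-1 RNAi. The N2 and lin-65 EV groups, at the same mean of 2.44 CPM, could not be ordered. Met-2 EV lay wholly above both, as for 29.7% of genes against N2 EV and 23.9% against lin-65 EV. Lin-65 on RNAi lay wholly above met-2 EV, a comparison for which the share over all genes was not computed. Among the RNAi groups, N2 overlapped lin-65 and met-2 overlapped N2. The spread between replicates relative to the mean was largest where acs-2 was scarce, at 46.8% in N2 EV and 64.9% in lin-65 EV, and 16.7% to 27.4% in the other groups.

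Set against all 15110 genes tested, acs-2 took place 7 by log2 fold change in N2, place 8 in lin-65 and place 50 in met-2. These places describe how the gene was chosen. Among the 82 genes called higher in N2 (adjusted p under 0.05), acs-2 was number 6, between B0205.13 (4.5) above it and clec-17 (4.22) and hrg-2 (3.92), a lectin-domain gene and a heme-responsive gene, below it. Y58A7A.4 (4.67) stood 1 place higher. Among the 41 called higher in lin-65 it was number 3, below F22B3.7 (8.27) and B0205.14 (4.45) and above the cytochrome P450 genes cyp-14A4 (3.87) and cyp-33C8 (3.46). Among the 82 called higher in met-2 it was number 22, with gpa-1 (2.22) and clec-17 (2.18) above it and rips-1 (2.13) and hrg-3 (2.13) below it. Genes called in either direction made up 0.841% of those tested in N2, 0.715% in lin-65 and 1.11% in met-2, and genes called higher 0.543%, 0.271% and 0.543%. All 3 RNAi libraries lay above all 3 EV libraries for 20.5% of genes in N2, 7.76% in lin-65 and 7.41% in met-2. Since these contrasts chose acs-2, nothing is read from them.

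The strain comparisons were not used to choose the gene and were tested, though they share libraries with the responses that were. Without the RNAi, acs-2 was higher in met-2 worms than in either other strain. Against N2 EV the log2 fold change was 2.63 ± 0.42 (95% interval 1.74 to 3.53), 6.20-fold, with an adjusted p of 5.39e-04 (edgeR's quasi-likelihood test, adjusted by Benjamini-Hochberg over all genes). The lowest met-2 EV library, at 10.0 CPM, was above the highest N2 EV library, at 3.71, and all 3 met-2 libraries lay above all 3 of N2, as for 29.7% of genes. In the same comparison 30.5% of all genes tested were called, with 15.3% higher and 15.3% lower, so a call alone was common there. There acs-2 stood at place 193 by log2 fold change and place 238 by p. Against lin-65 EV the log2 fold change was 2.54 ± 0.42 (1.67 to 3.41), 5.82-fold, with an adjusted p of 6.70e-04, where 28.8% of genes were called and 23.9% had all met-2 libraries above all lin-65 libraries. Both calls held in each of 25 alternative analyses, 18 of which left out 1 library.

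Lin-65 worms on EV were not separated from N2. The log2 fold change of acs-2 was 0.09 ± 0.43 (-0.82 to 1.00; adjusted p 0.979), in a comparison with 1.42% of genes called. The interval is wide, and a p of this size does not show that the strains were alike. The sign turned to -0.18 without N2 EV replicate 2 and to -0.39 without lin-65 EV replicate 3, and the value was 0.49 without lin-65 EV replicate 1 and 0.52 with 16 libraries.

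On cco-1 RNAi no strain difference of acs-2 was called with all 18 libraries. The log2 difference of acs-2 between lin-65 and N2 was -0.38 ± 0.37 (-1.16 to 0.40; adjusted p 0.828; 1.11% of genes called). Between met-2 and N2 it was 0.43 ± 0.37 (-0.36 to 1.21; adjusted p 0.447; 20.8% called). Between met-2 and lin-65 it was 0.81 ± 0.37 (0.02 to 1.59; adjusted p 0.124; 25.1% called). In this last comparison every met-2 library lay above every lin-65 library, with 52.7 CPM as the lowest and 40.3 as the highest. In 38.3% of all genes these groups did not overlap, in either direction. The adjusted p was 0.0157 with 16 libraries (log2 difference 0.89; 37.0% of genes called) and 0.0428 without lin-65 EV replicate 1 (0.81).

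The differences between responses are built from the responses that chose the gene, so they too are described without a test. The response in met-2 minus the response in N2 was -2.21 ± 0.56 on the log2 scale (95% interval -3.38 to -1.03), against lin-65 it was -1.73 ± 0.55 (-2.89 to -0.58), and the response in lin-65 minus that in N2 was -0.47 ± 0.57 (-1.68 to 0.73). With 16 libraries the met-2 minus N2 value was -2.17. The other 2 moved more, to -1.25 for met-2 minus lin-65 and -0.92 for lin-65 minus N2. These differences share the EV and RNAi libraries of the strain comparisons above: the lower fold in met-2 sits with the higher EV level, while on RNAi N2 averaged 47.6 CPM and met-2 64.0.

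**Figure D2:**
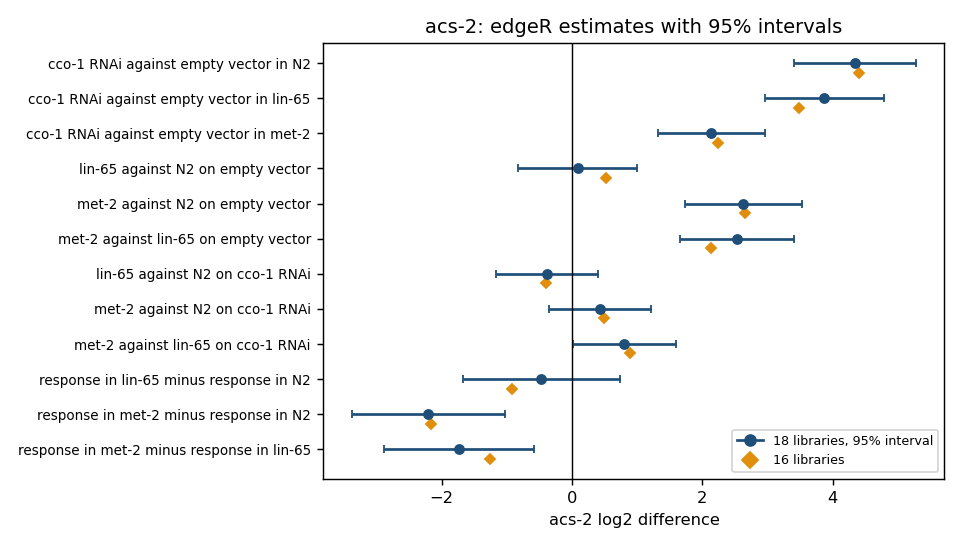
Log2 fold change of acs-2 with its 95% interval in the 12 comparisons: the 3 RNAi responses, the 6 strain comparisons and the 3 differences between responses. The met-2 EV comparisons (2.63 and 2.54) lie clear of 0, while the strain comparisons on cco-1 RNAi lie between -0.38 and 0.81.

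The summed levels of most tissue marker lists also differed in value between N2 EV and met-2 EV. The summed CPM of 10 intestine markers, from the tissue where acs-2 is mainly known, was 5302 to 7624 in N2 EV and 9886 to 11200 in met-2 EV, 1.61-fold higher by the means. Of these 10 markers 9 were higher in value and 2 were called higher, ges-1 and asp-1, against 15.3% of all genes. Set per 1000 CPM of the intestine sum, acs-2 was 0.233 to 0.699 CPM in N2 EV and 1.01 to 1.6 in met-2 EV, a 3.46-fold higher mean with no overlap. The ratio without this scaling was 5.94. Neuron markers summed to 157 to 181 CPM in N2 EV and 393 to 438 in met-2 EV, hypodermis markers to 2365 to 4366 and 4648 to 5461, germline markers to 1259 to 1608 and 1012 to 1154, and sperm markers to 551 to 987 and 221 to 288. The body wall muscle sums overlapped, at 9146 to 9706 CPM and 8527 to 11143. Beyond the intestine scaling, the part of these shifts in the acs-2 result was not tested. In whole-worm RNA, fewer cells of a type and less RNA per cell cannot be told apart. On cco-1 RNAi the intestine sum in N2 was 6023 to 6752 CPM, inside the EV range, and acs-2 per 1000 CPM of it was 6.11 to 8.80. The same ratio on RNAi was 5.33 to 7.07 in lin-65 and 4.82 to 5.97 in met-2. On this scale the met-2 RNAi libraries were all below the N2 ones, the opposite order to that of the CPM means. The share of all genes that did not overlap on the intestine scale was not computed, on EV or on RNAi.

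Worms have a family of acyl-CoA synthetases, and 21 acs genes were listed and tested. Per kilobase of coding sequence, acs-2 was near the bottom of the family on EV and in its middle on RNAi. In N2 EV it stood at 1.32 CPM per coding kb, place 20 of 21 and 0.233% of the family's summed level, while the highest members were acs-5 (170.2), acs-1 (49.7) and acs-14 (46.9). On cco-1 RNAi it reached 25.7 CPM per kb in N2, place 9 and 4.24% of the family. In lin-65 worms its level per kb was 1.32 (place 20) on EV and 19.7 (place 12) on RNAi, and in met-2 worms 7.82 (place 14) and 34.5 (place 7), where it made up 6.37% of the family. Even then acs-5 remained the most abundant member, at 113 CPM per kb in met-2 on RNAi.

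None of the other 20 acs genes was called in any of the 3 RNAi responses with all 18 libraries, against a background of 0.841%, 0.715% and 1.11%. The medians of their log2 fold changes were -0.21 in N2, -0.22 in lin-65 and 0.05 in met-2. The smallest p in N2 belonged to acs-19, an acetyl-CoA synthetase-like gene, with 83.2 ± 4.02 CPM on EV and 142.1 ± 11.3 on RNAi (0.77 ± 0.25, adjusted p 0.153), followed by acs-17 (1.18 ± 0.45, 0.205) and acs-20 (0.74 ± 0.29, 0.217). In lin-65 it was again acs-19 (0.85 ± 0.25, 0.166). In met-2 it was acs-1, which averaged 96.2 CPM on EV and 54.8 on RNAi (-0.81 ± 0.19, 0.0523). The count in N2 depended on the libraries in the fit. With 16 libraries, 7 others were called in N2: acs-17, acs-4, acs-19 and acs-20 higher and acs-7, acs-14 and acs-15 lower. The largest change was that of acs-2 (4.41), whose response chose it, so nothing is read from its place. That fit called 18.5% of all genes in N2, so calls became common throughout. In lin-65 and met-2 none of the other acs genes was called with 16 libraries, where 1.13% and 1.96% of all genes were. DESeq2 called 2 acs genes in N2, 2 in lin-65 and 3 in met-2, against 3.71%, 1.88% and 2.48% of all genes. Each of these counts includes acs-2, which was chosen by its response.

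In met-2 EV against N2 EV, acs-2 was 1 of 8 acs genes called, against 30.5% of all genes. Higher were acs-2, acs-17 (1.53, adjusted p 0.0177), acs-22 (25.0 ± 3.98 to 73.5 ± 11.3 CPM, 1.55 ± 0.32, 0.00280), a relative of fatty acid transport proteins, and acs-19 (0.67, 0.0497). Lower were acs-18 (30.7 ± 4.38 to 9.04 ± 2.49 CPM, -1.76 ± 0.33, 0.00148), acs-15 (19.5 ± 4.98 to 5.09 ± 1.16 CPM, -1.93 ± 0.39, 0.00217), acs-6 (-0.89, 0.0214) and acs-21 (-1.15, 0.0339). The calls went both ways, 4 higher and 4 lower of 21 tested, as they did over all genes, with 15.3% higher and 15.3% lower. Of the members called, acs-2 had the largest change. Without N2 EV replicate 1 or 2 the count of called members fell to 4, and without met-2 EV replicate 1 or 3 to 5, while 16 libraries gave 12. The share of all genes called there moved as well, from 15.8% to 39.9% with 1 library left out and to 49.1% with 16 libraries. The calls of acs-2, acs-15, acs-18 and acs-22 held in all 25 alternatives.

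**Figure D3:**
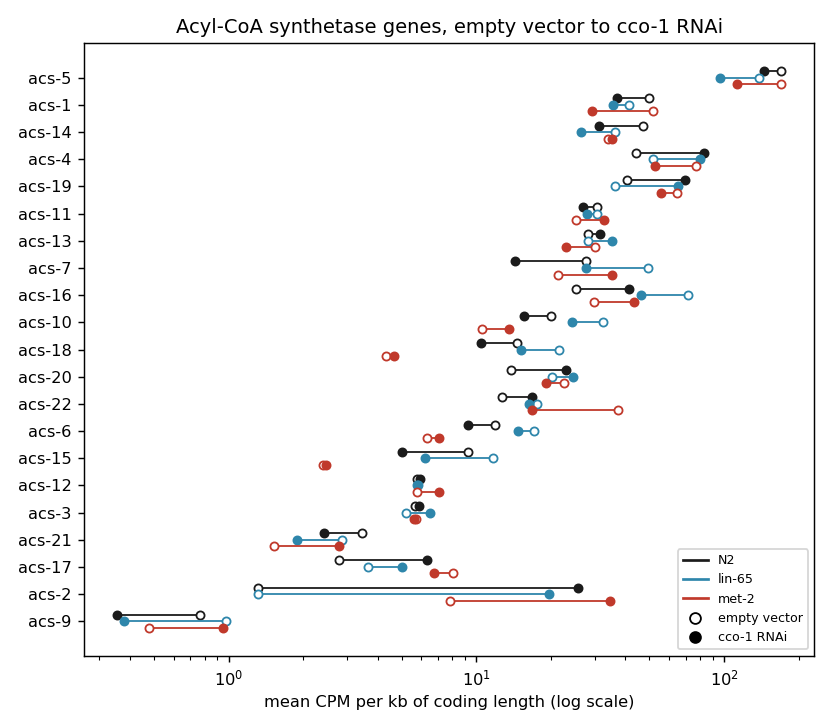
Levels of the 21 acyl-CoA synthetase genes per kilobase of coding sequence (CPM per kb, log axis) in the 6 groups. On the scale shown acs-2 goes from 1.32 to 25.7 in N2, from 1.32 to 19.7 in lin-65 and from 7.82 to 34.5 in met-2.

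Steps upstream of acs-2 were examined through NHR-49 and 8 other regulators linked to it. The nhr-49 transcript itself stood at 54.9 ± 1.92 CPM in N2 EV and 57.8 ± 3.70 on RNAi (0.07 ± 0.41, adjusted p 0.932), and at 57.3 ± 1.15 CPM in met-2 EV (0.06 ± 0.41 against N2, 0.920). It is named outside the naming rule because it is the regulator itself. None of the 9 was called in any of the 3 responses with 18 libraries. Over all genes 0.841%, 0.715% and 1.11% were called in N2, lin-65 and met-2, so this count says little about the 9. In N2, hlh-11, a basic helix-loop-helix repressor of lipid breakdown genes, stood at 17 ± 2.03 CPM on EV and 54.3 ± 5.29 on RNAi (1.67 ± 0.55, 0.162), and mdt-15, the Mediator subunit that works with NHR-49, at 12.1 ± 1.08 and 33.2 ± 2.33 (1.46 ± 0.50, 0.174). In both genes every N2 RNAi library was above every EV library, which 20.5% of all genes showed in that direction. With 16 libraries both were called in N2 (1.69, adjusted p 7.68e-05, and 1.48, 0.00150), and hlh-11 in met-2 (0.89, 0.0448). The 2 of 9 in N2 stand against 18.5% of all genes in that fit. Without met-2 cco-1 replicate 1 alone, 2 members were called in N2, against 5.65% of all genes. In that library mdt-15 was at 5.55 CPM and nhr-49 at 11.2, against 34.8 and 53.5, and 56.8 and 65.97, in the other met-2 RNAi libraries.

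In met-2 EV against N2 EV, 4 of the 9 regulators were called higher and 0 lower, against 15.3% of all genes in each direction, with all 9 above 0 in value and a median of 0.74, against 0.04 over all genes. They were mdt-15 (12.1 to 41.9 CPM, 1.80 ± 0.51, adjusted p 0.0148), the nuclear receptor gene nhr-79 (0.76, 0.0131), sbp-1 (0.92, 0.0274), the worm relative of SREBP, and hlh-11 (1.61, 0.0348). The count was 0 without N2 EV replicate 2, 1 without met-2 EV replicate 1, and 2 without N2 EV replicate 1 or 3 or met-2 EV replicate 2. The share of all genes called in either direction moved too, from 15.8% to 39.9% with 1 library left out.

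Of 12 genes reported to depend on NHR-49, 10 passed the filter, and members were called in both directions. The filter left out cpt-3 (0 to 0.584 CPM across libraries) and lbp-8 (0 to 0.971 CPM). In N2 the genes icl-1 and ugt-16 were called higher along with acs-2. The gene icl-1, which encodes the glyoxylate cycle enzymes, was at 108, 91.4 and 85.2 CPM on EV and 279, 165 and 218 on RNAi (1.22 ± 0.21, adjusted p 0.00623). Its N2 groups did not overlap, as for 20.5% of all genes in that direction. The UDP-glucuronosyltransferase gene ugt-16 went from 12.98 ± 7.77 to 44.6 ± 11.1 CPM (1.77 ± 0.39, 0.0379). The icl-1 call was lost without N2 EV replicate 3 (0.0509) or N2 cco-1 replicate 1 (0.0546), and the ugt-16 call in 12 of 18 analyses that left out 1 library, with an adjusted p of up to 0.228.

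Other genes of the same list fell. The stearoyl-CoA desaturase gene fat-7 was at 6.82, 8.40 and 17.8 CPM in N2 on EV and at 1.94, 1.94 and 1.28 on RNAi (-2.72 ± 0.37, adjusted p 6.36e-04). Lin-65 worms had 24.5 ± 4.14 CPM on EV and 2.96 ± 0.213 on RNAi (-3.03 ± 0.36, 2.34e-04), and in met-2 the level fell from 13.4 ± 4.74 to 0.726 ± 0.0877 CPM (-4.17 ± 0.41, 3.50e-05). Its EV and RNAi libraries did not overlap in any strain, in the direction opposite to acs-2 (18.1%, 8.5% and 5.98% of all genes in N2, lin-65 and met-2), and the 3 calls held in all 25 alternatives. The gene is nearly identical to fat-6, and how the counting treated reads they share is not given. The palmitoyl-CoA desaturase gene fat-5 fell in lin-65 (13.6 ± 0.568 to 2.31 ± 0.730 CPM, -2.52 ± 0.41, 0.00534) and in met-2 (20.0 ± 4.54 to 3.24 ± 0.809 CPM, -2.60 ± 0.40, 0.00181). In N2 it stood at 2.94 ± 0.623 and 1.18 ± 0.877 CPM (-1.45 ± 0.45, 0.147). The lin-65 call of fat-5 was lost without lin-65 cco-1 replicate 3 (0.0604). The beta-oxidation gene ech-1.1 fell in N2 (8.199 ± 1.44 to 2.63 ± 0.166 CPM, -1.63 ± 0.31, 0.0130), a call lost without N2 EV replicate 1 or 2 or without any 1 of the N2 RNAi libraries (adjusted p 0.0560 to 0.106).

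Leaving out acs-2, which was chosen by its response, 4 of the 9 other members tested were called in N2, 2 in lin-65 and 2 in met-2. Over all genes 0.841%, 0.715% and 1.11% were called in either direction. In met-2 EV against N2 EV the list, with acs-2, had 4 higher and 1 lower, where 30.5% of all genes were called. Beside acs-2 these were fat-5 (2.94 ± 0.623 to 20.0 ± 4.54 CPM, 2.75 ± 0.41, adjusted p 2.82e-04), icl-1 (1.09, 0.00169) and ugt-16 (1.72, 0.00450), and the flavin monooxygenase gene fmo-2 on the lower side (3.50 ± 0.876 to 0.837 ± 0.0537 CPM, -2.02, 0.0340). The fmo-2 call was lost in 5 of the 18 analyses that left out 1 library (adjusted p of up to 0.0898). For icl-1 and ugt-16, met-2 EV was higher than N2 EV and cco-1 RNAi higher than EV in N2, the same directions as acs-2. For fat-5 the RNAi lowered what was higher in met-2 EV.

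**Figure D4:**
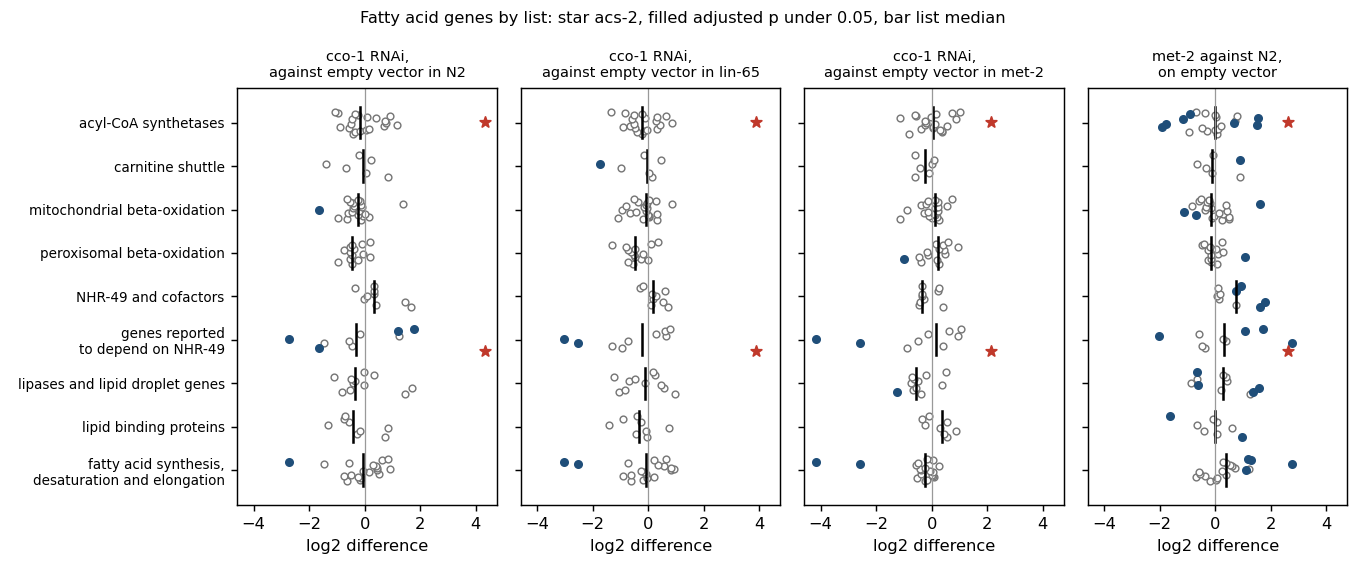
Log2 fold changes of the members of the 9 pathway lists in the 3 RNAi responses and in met-2 EV against N2 EV. Filled points have an adjusted p under 0.05, the star is acs-2 and the bar is the list's median, and in the 3 responses acs-2 is the highest point of its lists while fat-7 (-2.72, -3.03 and -4.17) is far below 0. The place of acs-2 in the responses follows from how it was chosen.

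Downstream of acs-2, few carnitine shuttle or beta-oxidation genes were called in the RNAi responses with 18 libraries. Few genes were called there at all, so this says little about these lists. The counts that follow for the 3 responses and for met-2 EV against N2 EV stand against the same shares of all genes, 0.841%, 0.715%, 1.11% and 30.5%. For met-2 EV against N2 EV the share ran from 15.8% to 39.9% with 1 library left out. Over all alternatives it reached 49.1%. Of 7 carnitine shuttle genes, 6 were tested, and 0 were called higher in any response. The carnitine palmitoyltransferase-family gene cpt-5 fell in lin-65 (19.2 ± 6.75 to 5.67 ± 1.47 CPM, -1.73 ± 0.33, adjusted p 0.0170), a call lost without lin-65 EV replicate 1 (0.0667), lin-65 cco-1 replicate 1 (0.101) or replicate 3 (0.107). The outer-membrane enzyme gene cpt-1, which takes the acyl-CoA that ACS-2 makes, stood at 50.0 ± 1.55 CPM in N2 EV and 89.1 ± 5.20 on RNAi (0.83 ± 0.37, 0.255). Its N2 libraries did not overlap, as for 20.5% of all genes in that direction. It was called with 16 libraries (0.85, 0.00436), where cpt-5 was called lower in N2 (-1.39, 0.00213) and 18.5% of all genes were called. In met-2 EV cpt-6 was higher than in N2 EV (0.88, 0.0359), with 0 to 3 shuttle genes called across the alternatives.

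Among 21 mitochondrial beta-oxidation genes, ech-1.1 in N2 was the 1 call in the 3 responses, with medians of -0.24, -0.06 and 0.11. With 16 libraries 5 were called in N2, ech-5 higher (1.396, adjusted p 0.00595) and ech-1.1, acdh-10, acdh-7 and kat-1 lower, against 18.5% of all genes. In met-2 EV against N2 EV ech-5 was higher (27.9 ± 4.23 to 85.9 ± 10.1 CPM, 1.62, 0.0162) and the acyl-CoA dehydrogenase genes acdh-8 (-1.14, 0.0116) and acdh-13 (-0.70, 0.0109) were lower, and 1 remained called without N2 EV replicate 1. Of 14 peroxisomal beta-oxidation genes, the acyl-CoA oxidase gene acox-1.4 was the 1 call in the 3 responses, lower in met-2 (27.4 ± 2.28 to 13.6 ± 1.295 CPM, -1.01, 0.0291). That call was lost without any 1 of the met-2 EV libraries or without met-2 cco-1 replicate 2 or 3 (adjusted p 0.0859 to 0.169). The list's medians were -0.45 in N2, -0.49 in lin-65 and 0.22 in met-2. In met-2 EV acox-1.5 was higher than in N2 EV (1.06, 0.00417).

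Genes that supply or compete for fatty acids were mostly not called on RNAi. Over all genes 0.841%, 0.715% and 1.11% were called in N2, lin-65 and met-2, so that alone says little about these lists. Of 11 tested lipase and lipid droplet genes, the diacylglycerol acyltransferase gene dgat-2 was the 1 call, lower in met-2 (102 ± 19.6 to 42.9 ± 5.68 CPM, -1.26, adjusted p 0.0232), lost without any 1 of the met-2 EV libraries or without met-2 cco-1 replicate 2 or 3 (0.0552 to 0.172). The lipase genes hosl-1 (4.39 ± 0.492 to 14.6 ± 2.55 CPM, 1.72 ± 0.52, 0.137) and atgl-1 (9.13 ± 1.68 to 25.4 ± 3.83 CPM, 1.47 ± 0.51, 0.174) did not overlap between N2 EV and RNAi, as for 20.5% of all genes in that direction. Both were called with 16 libraries (1.74, adjusted p 4.06e-04, and 1.48, 9.61e-04), as were 18.5% of all genes. In met-2 EV against N2 EV, hosl-1 (1.57, 0.0307) and dgat-2 (1.35, 0.00202) were higher and lid-1 (-0.62, 0.0444) and seip-1 (-0.67, 0.0421) lower, with 1 or 2 called without any 1 of the N2 EV libraries or without met-2 EV replicate 1 or 2. None of 8 tested lipid-binding protein genes was called on RNAi, and in met-2 EV lbp-1 was higher (0.97, 0.0411), a call lost in 9 of the 18 analyses that left out 1 library, and lbp-9 lower (-1.64, 0.00246). Of 19 genes of fatty acid synthesis, desaturation and elongation, fat-7 and fat-5 were the calls on RNAi. In met-2 EV pod-2 (1.17, 0.0158) and fasn-1 (1.12, 0.0329), the acetyl-CoA carboxylase and fatty acid synthase genes, fat-5 and let-767 (1.29, 0.0133) were higher and 0 lower, with 1 called without N2 EV replicate 1, 2 without met-2 EV replicate 1 and 9 with 16 libraries, where 49.1% of all genes were called.

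Genes were also ordered by how closely their log2 CPM followed that of acs-2 across the 18 libraries. The measure was Pearson's r over 8384 genes with a symbol, whose median r with acs-2 was 0.08. The libraries divide by treatment and strain, so r includes the RNAi response and is a description. The highest were ugt-62 (0.962), cyp-33C8 (0.950), tomm-70 (0.940), a receptor of the mitochondrial import machinery, and cyp-13A12 (0.934). They were followed by ugt-2 (0.921), the nuclear hormone receptor gene nhr-65 (0.915), ugt-21 (0.913) and the heme-trafficking gene hrg-9 (0.911). In all 14 genes had an r above 0.9. With 16 libraries ugt-62 (0.953) and cyp-33C8 (0.954) were still the top pair.

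Their group means show how far the likeness went. The gene cyp-33C8 averaged 5.02 CPM in N2 EV, 5.97 in lin-65 EV and 26.95 in met-2 EV, and 67.2, 66.6 and 241 on RNAi. As for acs-2, its N2 EV and lin-65 EV means were near each other and its met-2 EV mean was higher, 2.40 ± 0.32 above N2 EV on the log2 scale. Since cyp-33C8 was picked by its r over these libraries, such likeness is partly built in. Its response was 3.72 ± 0.33 in N2 and 3.16 ± 0.32 in met-2 on the log2 scale, against 4.35 and 2.14 for acs-2. The gene ugt-62 averaged 61.7, 70.3 and 189 CPM on EV and 409, 275 and 597 on RNAi in the same strain order. Its met-2 response was 1.66 ± 0.33 against 2.73 ± 0.34 in N2. For tomm-70 the likeness was in shape, not in size, with 59.8 and 103 CPM in N2 and a log2 fold change of 0.78 ± 0.18.

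The genes that ran most opposite to acs-2 were pud-1.2 (-0.931), pud-4 (-0.921), odc-1 (-0.911), the ornithine decarboxylase gene, and pud-3 (-0.891). The pud genes, named for proteins up in daf-2 mutants, have near-identical copies that can share reads, so their single values are uncertain. On EV pud-1.2 averaged 394 CPM in N2, 359 in lin-65 and 163 in met-2, and on RNAi 26.7, 39.3 and 23.7. In met-2 EV it was also lower than in N2 EV, with -1.27 ± 0.45, though the r that picked it covers these libraries.

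**Figure D5:**
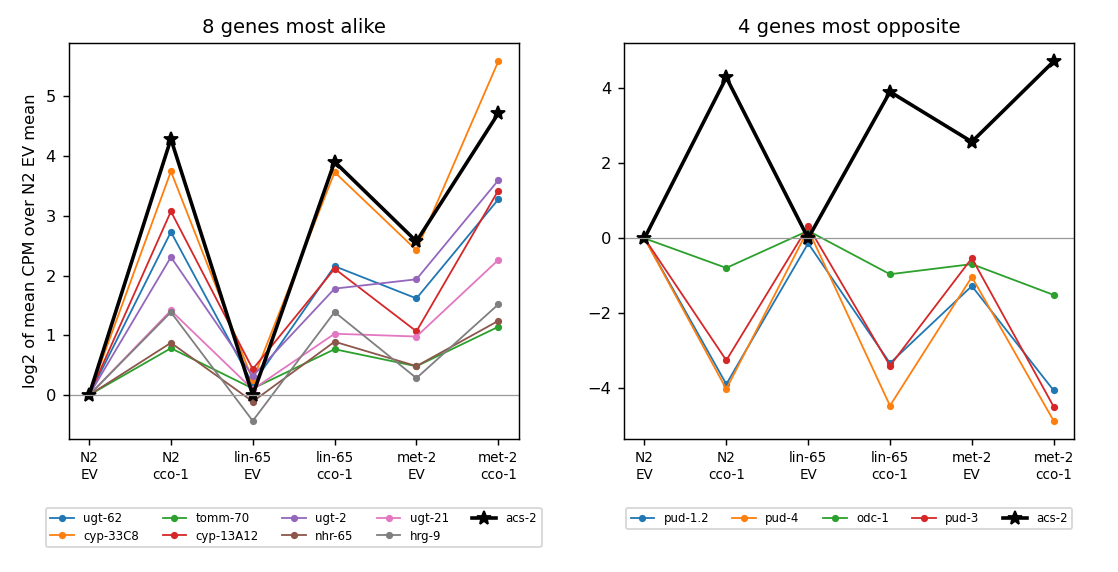
Group means of the 8 genes most like acs-2 (left) and the 4 most opposite to it (right), as log2 of the mean CPM over the N2 EV mean, with acs-2 as the black line. The gene cyp-33C8 lies closest in size to acs-2, and the means of pud-1.2, pud-3 and pud-4 are lower on RNAi than on EV in all 3 strains.

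None of the genes next to acs-2 on chromosome V was called on RNAi. The 3 annotated protein-coding genes on each side are prde-1, glb-14 and acr-18 before it, with acr-18 ending 8246 bases away, and lsm-5, fbxa-95 and fbxa-94 after it, at 482, 1578 and 3015 bases. That count is 0 of 6 in each of the 3 responses. Over all genes 0.841%, 0.715% and 1.11% were called in N2, lin-65 and met-2, so the count says little about these 6. In N2, 1 of the 6, fbxa-94, was higher in value (1.67 ± 0.63, adjusted p 0.207). The smallest adjusted p was that of fbxa-94, an F-box gene at 0.325 CPM in N2 EV, with 2.44 ± 0.59 in met-2 (adjusted p 0.0533). In met-2 EV prde-1, a gene of piRNA production, was lower than in N2 EV (-1.15 ± 0.29, 0.00814), against 2.63 for acs-2. Of all genes 30.5% were called between these groups.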

How the data were processed

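PolyA RNA from whole L4 worms was selected with oligo-dT and sequenced from Epicentre ScriptSeq v2 libraries, per the labels' protocols. The files as deposited by the authors hold raw counts, 1 column per library and 1 row per gene model, and no column was left out. The submitters' processing notes name Bowtie 0.12.7 and DESeq but not what each did. For the strand setting, counting tool, annotation and genome build: not given in the sources used here. Sequence names were matched to WBcel235 (Ensembl 115) for 20074 of 20505 models, and the other 431 held 0.148% of counts.

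Libraries were grouped by title and source. The counts were filtered with filterByExpr by group, leaving 15110 genes, and fitted with edgeR 4.0.16 (R 4.3.3, limma 3.58.1): TMM factors, group means over 18 libraries, robust quasi-likelihood test, two-sided, Benjamini-Hochberg over all genes, threshold 0.05. SE is the log2 fold change over the square root of F. There were 12 comparisons. The 3 differences between responses had been planned as tests but contain the responses that chose the gene, so they are given with no p. The 25 alternatives were RLE and upper-quartile factors, DESeq2 1.42.0, no filter, the compared groups alone, a replicate block, 16 libraries, and 18 that left out 1 library. A prior count of 2 was used for log2 CPM. The fitting script was tested on simulated counts.

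The gene, the 9 pathway and 6 marker lists and the tests were chosen with earlier results of these data known, and lists come from general knowledge, with less certain membership for ugt-16, ech-9 and lbp-8. Named genes were acs-2, up to 4 members per list and comparison by smallest p, the 3 acs genes highest per coding length in N2 EV, the 2 called genes on each side of acs-2 by rank, the 8 most alike and 4 most opposite, and the 3 neighbours on each side. Of members called with 16 libraries, those named beyond this were chosen after their values were seen. Poisson intervals and the floor of 3 counts cover counting error only. No sequence is printed, since none of the files used here holds one.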

Additional observations from a re-analysis of the deposited data

How the results depend on the processing

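Over 25 alternatives, both met-2 EV calls of acs-2 kept direction and side of the threshold (log2 fold change 2.36 to 2.99 against N2, and 2.14 to 3.02 against lin-65), as did the differences of lin-65 and met-2 from N2 on cco-1 RNAi, which were not called in any. The RNAi responses chose the gene, so for them and their differences only values are given: the met-2 response was 2.14 with only the groups compared and 1.93 to 2.32 with 1 library left out. The met-2 against lin-65 difference on RNAi passed with 16 libraries (0.89) and without lin-65 EV replicate 1 (range 0.62 to 0.89). Met-2 minus N2 was -2.16 with DESeq2, -2.17 with 16 libraries and -2.56 to -1.94 with 1 library left out. Lin-65 against N2 on EV reversed without N2 EV replicate 2 (-0.18) and lin-65 EV replicate 3 (-0.39; range -0.39 to 0.49), and lin-65 minus N2 without the latter (0.0095; range -0.87 to 0.0095). These ranges are for 1 library left out. With 16 libraries the values were 0.52 for lin-65 against N2 on EV and -0.92 for lin-65 minus N2. The causes were not tested.

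Replicate numbers were not taken as pairs in the main fit. Of 9 same-number pairs, 5 had deviations correlated above 0.1 (-0.28 to 0.36). In N2 these correlations were 0.126, 0.357 and 0.285, while in lin-65 and met-2 they ran in both directions. The values do not settle whether same-number libraries were paired. With a replicate block the acs-2 responses were 4.36, 3.91 and 2.15, met-2 against N2 on EV 2.63 (adjusted p 3.77e-04) and met-2 minus N2 -2.21, and no strain call of acs-2 changed.

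Counts of called list members moved across the alternatives. In N2 the acs family ran from 1 to 8, carnitine shuttle 0 to 2, mitochondrial beta-oxidation 0 to 6, peroxisomal 0 to 3, regulators 0 to 2, NHR-49-dependent genes 2 to 7, lipases 0 to 4, lipid binding 0 to 5 and synthesis 1 to 8. The counts for the acs family and the NHR-49-dependent genes include acs-2, which was chosen by its response. The share of all genes called in N2 ran from 0.327% to 20.4%. The highest counts came with 16 libraries or only the groups compared. At low counts acs-2 depth limits precision most in lin-65 EV replicate 1, with 8 reads.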
